A study of Homo sapiens with 12 samples.

Results

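The leukocyte integrins and adhesion molecules described here are 9 genes of THP1 monocytes: ITGAL, ITGAM, ITGAX, ITGB2, ITGA4, ITGB1, SELPLG, ICAM1 and PECAM1. They were chosen by gene symbol, with earlier results of these data known, and each had a single row among the 58735 genes of the count table. All 9 passed the filter on low counts that left 25873 genes to be tested. THP1 is an established human monocytic leukaemia cell line, and its RNA was sequenced in 4 groups of 3 libraries each. In the mono-culture group THP1 cells were kept alone in endothelial medium, and in the other groups they shared a well for 24 h with human umbilical vein endothelial cells, which lay on the far side of a porous transwell insert. These were control ECs given DMSO, senECs made senescent with etoposide, a topoisomerase inhibitor that damages DNA, or EGCG-treated senECs, which also received the green tea catechin EGCG. After that, THP1 cells of every group, mono-culture included, received LPS at 100 ng/ml for a further 2 h, so no value here comes from unstimulated cells. The cells were wild type, and all libraries come from the same cell line. Replicates were numbered 1, 2 and 3 in mono-culture and with control ECs, and 1, 2 and 5 with senECs and EGCG-treated senECs. Nothing in the labels states that replicates were independent cultures, so the p-values measure the spread between these libraries.

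A monocyte leaves the blood in steps that different adhesion molecules carry. It first tethers and rolls through selectins, for which PSGL-1, the product of SELPLG, is the main leukocyte ligand, and then arrests through integrins, heterodimers of an alpha and a beta chain that bind ICAM and VCAM counter-receptors once switched to an active shape. The beta chain ITGB2 pairs with ITGAL, ITGAM and ITGAX to form the leukocyte integrins LFA-1, Mac-1 and p150,95, while ITGA4 pairs with ITGB1 to form VLA-4, and PECAM1 serves the final passage between endothelial cells.

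Library depth ranged from 15439836 to 22092600 counts per library. Values are given as CPM, counts scaled to a common library size after TMM normalization, and as FPKM where genes are compared with each other, which also divides by the exon length. At the smallest depth, a gene without a count could still lie at 0.194 CPM by counting error alone. The 9 genes had between 180 and 35912 counts per library, all far above that limit. Of 15 monocytic marker genes, 13 had a mean of at least 1 CPM in every group. The exceptions were CD68, counted at a mean of 0.384 CPM, and FCN1 at 0.027 CPM. The counting program is not given, so whether reads of these genes were lost in counting cannot be told. The summed level of the 15 markers ran from 1067 to 1861 CPM over the 12 libraries. With edgeR's quasi-likelihood test, 2 of the 14 tested monocytic markers were called higher with senECs than in mono-culture, where 0.309% of all genes were called. At an unadjusted p under 0.05 stood 4 of the 14, beside 11% of all genes. The 2 called were CD14 (log2 fold change 2.09, adjusted p = 0.0363) and CEBPB (0.64, adjusted p = 0.0317). DESeq2 called both of these with senECs and also FCGR1A (0.53, DESeq2 adjusted p = 0.0411) and SPI1 (0.41, DESeq2 adjusted p = 0.0199). With EGCG-treated senECs it called CEBPB (0.59, DESeq2 adjusted p = 0.0054) and FCGR1A (0.63, DESeq2 adjusted p = 0.0111), each higher than in mono-culture. The part of this in the results on adhesion genes was not tested.

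Expressed per length, the beta 2 chain led the group by far. ITGB2 had a mean of 232 FPKM over the 12 libraries, followed by ICAM1 at 63.3, ITGAL at 38.2, ITGA4 at 24.0, ITGB1 at 22.5, PECAM1 at 21.1, ITGAM at 14.2, SELPLG at 8.11 and ITGAX at 7.08 FPKM. ITGB2 lay above ICAM1, ITGAL above ITGA4, PECAM1 above ITGAM and ITGAM above SELPLG in all 12 libraries. Neighbours that changed places between libraries were ICAM1 and ITGAL (ICAM1 higher in 9 of 12), ITGA4 and ITGB1 (ITGA4 higher in 8), ITGB1 and PECAM1 (ITGB1 higher in 8) and SELPLG and ITGAX (SELPLG higher in 9). In mono-culture all 3 libraries had SELPLG below ITGAX, at 4.57 ± 0.615 against 8.29 ± 1.40 FPKM (SD, n = 3), and in all 9 co-culture libraries SELPLG was above ITGAX. Among all genes tested, the mean CPM of the 9 genes fell between the 71.1th percentile for SELPLG and the 99.9th for ITGB2.

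**Figure D1:**
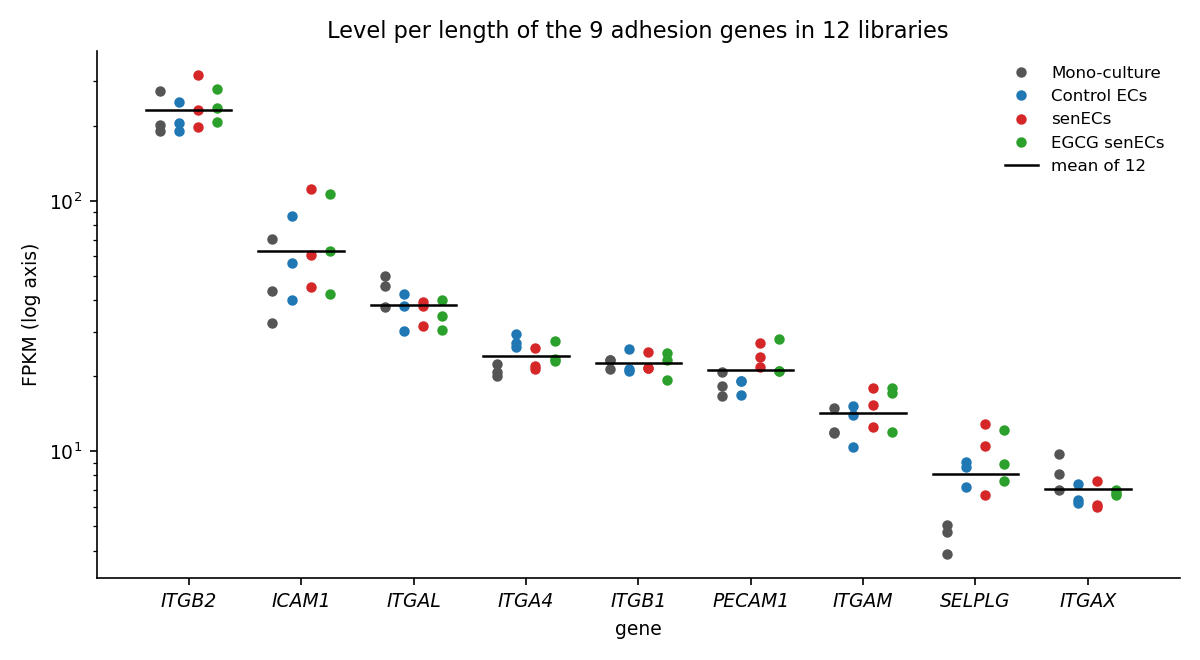
FPKM on a log axis for the 9 adhesion genes, ordered by their mean, with a point for each of the 12 libraries coloured by group and a line at the mean of 12. ITGB2 lies above every other gene in all libraries, and SELPLG lies lowest in the 3 mono-culture libraries.

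By edgeR, with the filter on low counts and no replicate term, SELPLG alone of the 9 genes was called in any comparison. DESeq2 also called ITGA4 with control ECs against mono-culture (DESeq2 adjusted p = 0.0439). Settings that called further genes are given at the end. In THP1 mono-culture SELPLG was measured at 11.8, 9.69 and 12.7 CPM in replicates 1, 2 and 3, and after co-culture with control ECs at 17.9, 22.6 and 21.5 CPM. With senECs it stood at 16.6, 26.3 and 32.0 CPM and with EGCG-treated senECs at 19.0, 30.4 and 22.2 CPM in replicates 1, 2 and 5. All 9 co-culture libraries lay above all 3 mono-culture libraries, and the 3 co-cultures overlapped with each other. In bulk RNA, a larger share of cells that transcribe a gene and more RNA per cell cannot be told apart.

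SELPLG rose 2.19-fold with senECs against mono-culture (log2 fold change 1.13, standard error 0.21, edgeR adjusted p = 0.0213) and 2.09-fold with EGCG-treated senECs (1.07, standard error 0.21, edgeR adjusted p = 0.0380). With control ECs its mean was 1.82-fold that of mono-culture, a log2 difference of 0.86 with a standard error of 0.21, which missed the threshold after adjustment by edgeR (adjusted p = 0.162) and passed it by DESeq2 (adjusted p = 0.0215). Among the co-cultures the log2 difference was 0.27 between senECs and control ECs (95% interval -0.20 to 0.73, edgeR adjusted p = 0.785) and -0.06 between EGCG-treated senECs and senECs (-0.53 to 0.40, edgeR adjusted p = 1). That a call was made with senECs and not with control ECs therefore does not separate these co-cultures.

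The call on SELPLG rested on few libraries. Its rise with senECs lost the threshold when any mono-culture library or senEC replicate 2 or 5 was left out, with edgeR adjusted p-values from 0.0558 to 0.157 in those 5 fits and log2 fold changes from 0.91 to 1.35 over all 12 fits. The rise with EGCG-treated senECs lost it when any mono-culture library was left out, when replicate 2 of any co-culture was, or without replicate 5 of its own group, at edgeR adjusted p-values from 0.0588 to 0.256. Without senEC replicate 1, the difference with control ECs passed at an edgeR adjusted p of 0.04995. The direction was the same in all 18 alternative settings of these comparisons.

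Selectin binding to PSGL-1 involves sialylated, fucosylated sugars, core 2 branches and, for some selectins, sulfated tyrosines. The 11 genes of that synthesis were therefore read beside SELPLG, and all 11 were tested. GCNT1, the enzyme that starts the core 2 branch, was the gene edgeR called among them. It was measured at 26.9, 32.2 and 32.1 CPM in the mono-culture libraries, 44.8, 49.9 and 47.0 CPM with control ECs, 42.4, 47.3 and 49.4 CPM with senECs and 42.5, 47.5 and 47.0 CPM with EGCG-treated senECs. All 9 co-culture libraries were again above all 3 of mono-culture, a separation not counted over all genes. The log2 fold changes of GCNT1 against mono-culture were 0.64 (standard error 0.11, edgeR adjusted p = 0.0152), 0.61 (0.11, adjusted p = 0.0179) and 0.59 (0.11, adjusted p = 0.0285), in that order. Each of these calls was lost when any mono-culture library was left out. Each was also lost without replicate 2, or without replicate 3 or 5, of the co-culture compared, and the edgeR adjusted p-values then reached 0.134, 0.108 and 0.150. With only the 6 libraries compared, the calls with senECs and EGCG-treated senECs were lost too (edgeR adjusted p = 0.0868 and 0.0700). DESeq2 called GCNT1 in each co-culture and also called ST3GAL4, a sialyltransferase, against mono-culture in each co-culture, at 22.3 to 24.3 CPM in mono-culture and 29.9 to 37.4 CPM in the co-cultures. The sugar-transferring FUT4, the most abundant of the list by CPM, ran from 311 to 339 CPM in mono-culture and from 305 to 409.5 CPM in the co-cultures. Over the 11 genes the median log2 fold change from mono-culture was 0.01 for the control EC group, -0.05 for the senEC group and -0.04 for the EGCG-treated senEC group, beside 0.01, -0.02 and -0.0013 over all genes tested.

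**Figure D2:**
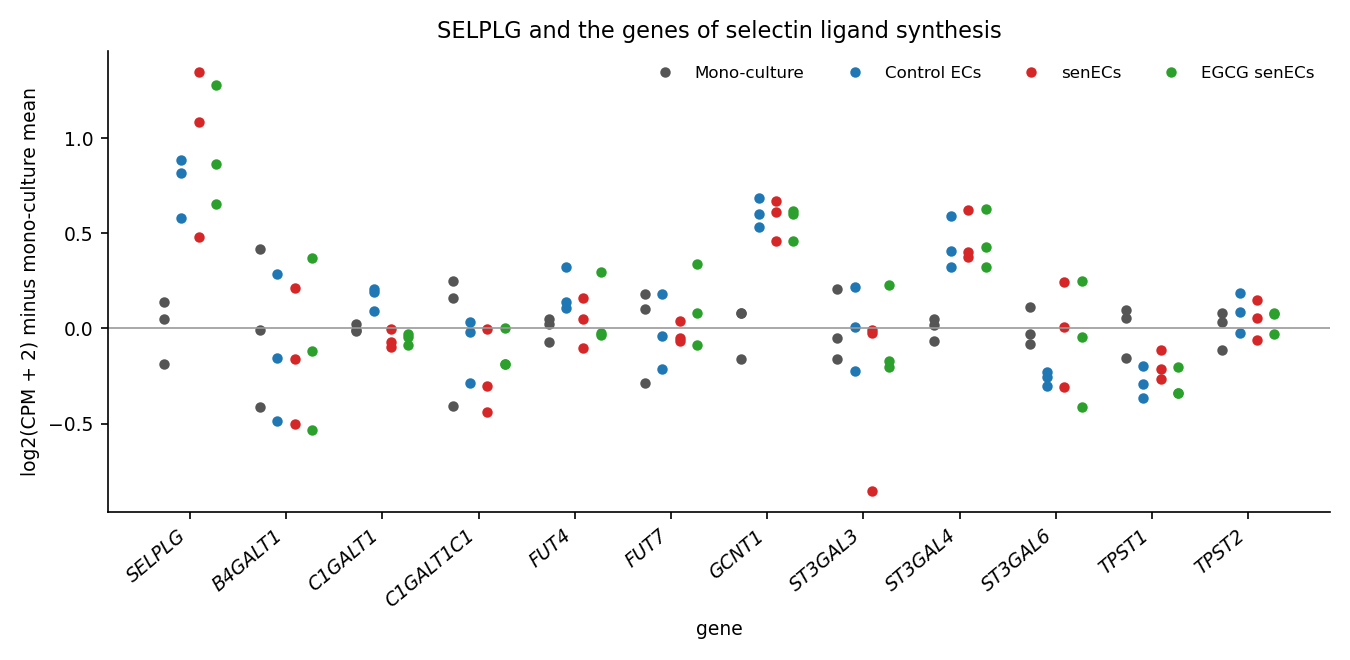
SELPLG and the 11 genes of selectin ligand synthesis in each library, as log2(CPM + 2) minus the mean of the 3 mono-culture libraries, coloured by group. For SELPLG and GCNT1 all 9 co-culture points lie above the 3 mono-culture points.

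The comparison of control ECs with mono-culture asks what endothelial neighbours change in THP1 cells. By edgeR, with all 12 libraries, the filter on low counts and no replicate term, none of the 9 genes was called, where 0.143% of all genes tested were. DESeq2 called SELPLG and ITGA4. At an unadjusted p under 0.05 stood 3 of the 9, SELPLG and ITGA4 higher and ITGAX lower, beside 6.52% of all genes. The libraries of the compared groups did not overlap for 2 of the 9, SELPLG and ITGA4, both higher, beside 12.8% of all genes. The median log2 fold change of the 9 genes was 0.01, equal in 2 decimals to that of all genes tested.

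ITGA4, the alpha 4 chain through which VLA-4 binds VCAM-1 and fibronectin, came next to SELPLG. Mono-culture libraries had 177, 163 and 158 CPM and control EC libraries 214, 205 and 233 CPM, while senEC libraries had 204, 173 and 169 CPM and EGCG-treated senEC libraries 184, 181 and 217 CPM. The control EC libraries lay above every mono-culture and every senEC library, and those of EGCG-treated senECs overlapped with both other co-cultures. With control ECs the mean was 1.31-fold that of mono-culture (log2 difference 0.39, standard error 0.11, edgeR adjusted p = 0.270, DESeq2 adjusted p = 0.0439). With senECs the log2 difference from control ECs was -0.26 (standard error 0.11, edgeR unadjusted p = 0.0249, adjusted p = 0.728). EGCG-treated senECs differed from senECs by 0.09 (95% interval -0.15 to 0.34, edgeR adjusted p = 1) and from mono-culture by 0.23 (unadjusted p = 0.0454, adjusted p = 0.579).

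Its partner ITGB1, the beta 1 chain shared by many integrins, was the steadiest of the 9 between groups. It was measured at 128, 139 and 139 CPM in mono-culture, 128, 125 and 154 CPM with control ECs, 129.8, 129.7 and 149 CPM with senECs and 115, 139 and 148 CPM with EGCG-treated senECs. All 4 groups overlapped, and their means ran only from 134 to 136 CPM. The log2 differences were 0.0061 between control ECs and mono-culture (95% interval -0.25 to 0.26), 0.0069 between senECs and control ECs (-0.25 to 0.27) and -0.02 between EGCG-treated senECs and senECs (-0.28 to 0.24), none called. In FPKM, ITGA4 over ITGB1 was 0.938 ± 0.101 in mono-culture and 1.23 ± 0.0651 with control ECs (SD, n = 3). It was 1.02 ± 0.169 in the senEC libraries and 1.11 ± 0.115 in those of EGCG-treated senECs. The 3 control EC ratios, from 1.15 to 1.28, lay above the 3 of mono-culture, from 0.864 to 1.05.

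**Figure D3:**
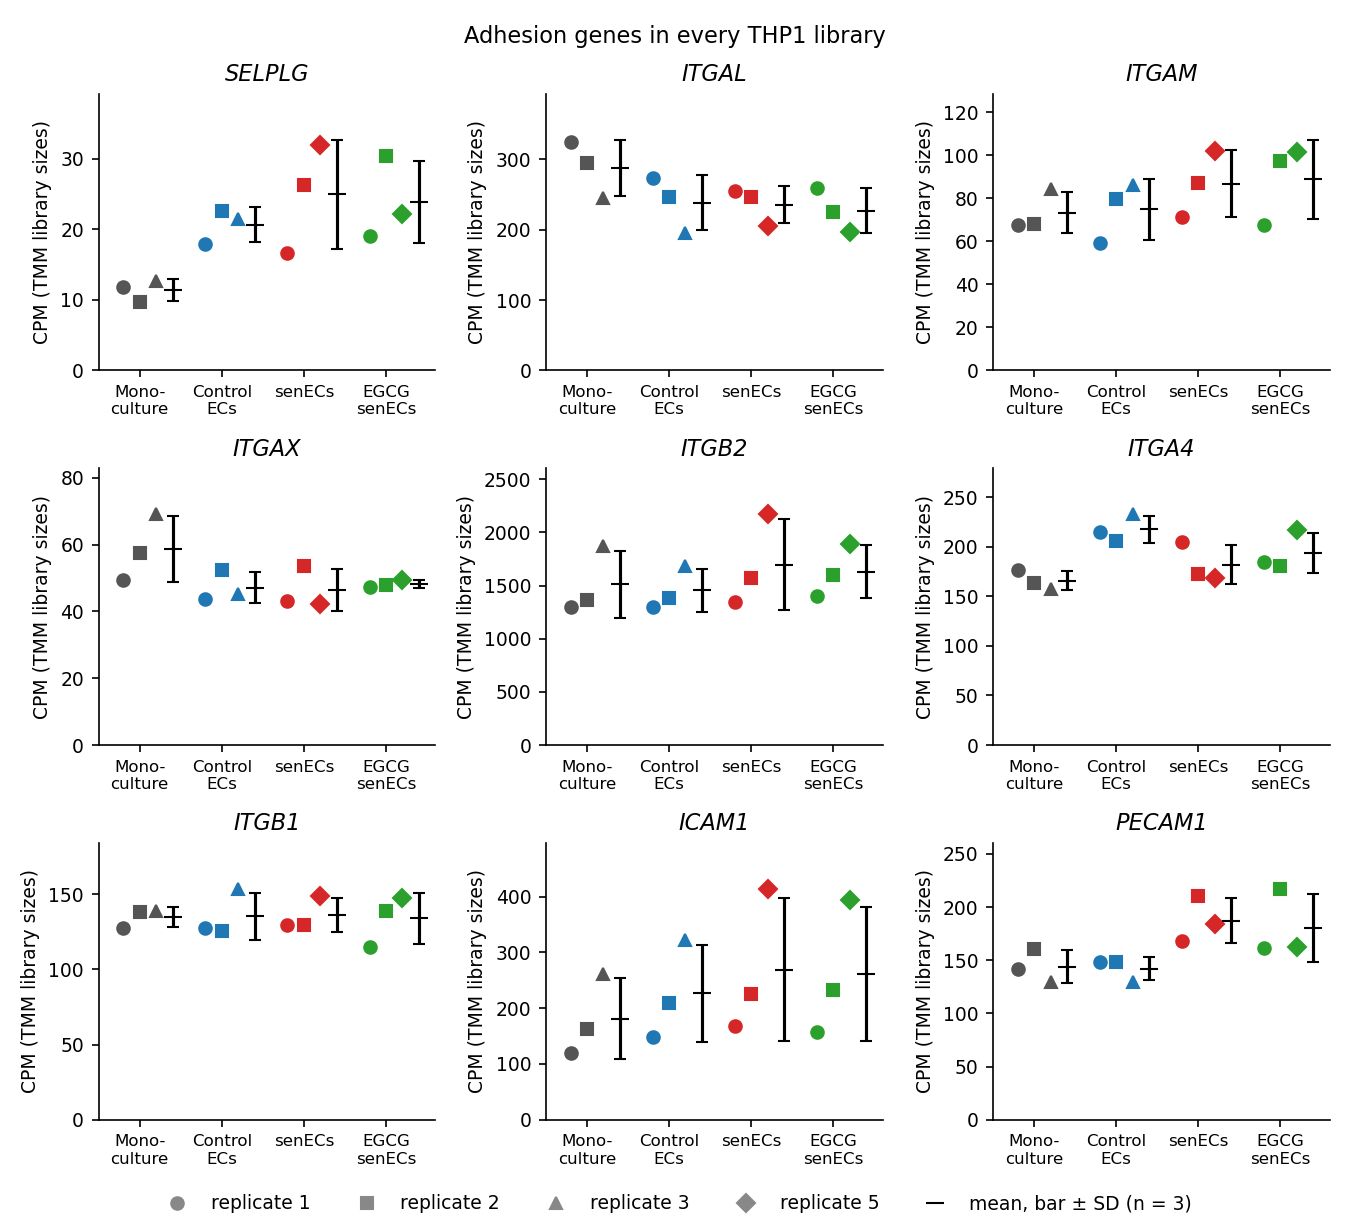
CPM of each adhesion gene in the 12 libraries by group, with the replicate number as the marker shape, and the mean with an SD bar (n = 3) to the right of each group. SELPLG is lowest in the mono-culture libraries, while replicates of ICAM1 differ by at least 2.16-fold within each group.

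The alpha chains that pair with ITGB2 differed in how they varied with it over the 12 libraries. Pearson's r with ITGB2, on log2(CPM + 2), was 0.87 for ITGAM, -0.79 for ITGAL and 0.09 for ITGAX. ITGAL, the LFA-1 chain whose ligands are the ICAMs, was measured at 324, 295 and 245 CPM in mono-culture, 274, 246 and 196 CPM with control ECs, 256, 247 and 205 CPM with senECs and 260.0, 225 and 197 CPM with EGCG-treated senECs. Replicate 1 was highest and replicate 3 or 5 lowest in each of the 4 groups, and all co-cultures overlapped with mono-culture. The log2 difference of ITGAL between control ECs and mono-culture was -0.27 (95% interval -0.59 to 0.05, edgeR adjusted p = 0.783), and that between EGCG-treated senECs and mono-culture was -0.34 (-0.66 to -0.02, edgeR unadjusted p = 0.0224, adjusted p = 0.516).

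ITGAX, the chain of p150,95 that is abundant on dendritic cells and macrophages, had 49.4, 57.4 and 69.1 CPM in mono-culture, 43.8, 52.5 and 45.2 CPM with control ECs, 43.3, 53.5 and 42.4 CPM with senECs and 47.2, 47.9 and 49.4 CPM with EGCG-treated senECs. Only the EGCG-treated senEC libraries lay wholly below those of mono-culture, and by a narrow gap. The log2 differences of ITGAX from mono-culture were -0.31 for the control EC group, -0.34 for the senEC group and -0.28 for the EGCG-treated senEC group, with standard errors of 0.13 and edgeR adjusted p-values of 0.716, 0.333 and 0.557. Without mono-culture replicate 3, its highest library, these differences were -0.18, -0.21 and -0.15.

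ITGAM, the Mac-1 chain that binds ICAM-1 and the complement fragment iC3b, was measured at 67.4, 68.0 and 84.4 CPM in mono-culture and 59.0, 79.5 and 86.3 CPM with control ECs. With senECs it had 71.2, 87.2 and 102 CPM and with EGCG-treated senECs 67.7, 97.1 and 102 CPM. Replicate 1 was lowest in each group, and the groups overlapped. The log2 difference was 0.03 between control ECs and mono-culture (95% interval -0.35 to 0.41), 0.21 between senECs and control ECs (-0.16 to 0.59) and 0.03 between EGCG-treated senECs and senECs (-0.34 to 0.41), none called. ITGAM and ITGAX are neighbours on chromosome 16, 22.2 kb apart, with ITGAL 737 kb before ITGAM.

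ITGB2, without which none of the 3 heterodimers reaches the cell surface, was measured at 1295, 1367 and 1873 CPM in mono-culture, 1295, 1387 and 1684 CPM with control ECs, 1345, 1574 and 2170.4 CPM with senECs and 1399, 1599.5 and 1895 CPM with EGCG-treated senECs. Again replicate 1 was lowest and replicate 3 or 5 highest in each group, and the groups overlapped. Its log2 difference was -0.05 between control ECs and mono-culture (95% interval -0.44 to 0.33), 0.22 between senECs and control ECs (-0.16 to 0.61) and -0.06 between EGCG-treated senECs and senECs (-0.44 to 0.33). ITGB2-AS1, an antisense gene at 4.80 to 10.2 CPM, overlaps 4.46% of the exon bases of ITGB2, and without a stated strand setting their reads there cannot be told apart.

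Set against each other in FPKM, ITGAL made up 67.5% ± 6.27 of the sum of the 3 alpha chains in mono-culture and 64.8% ± 6.76 with control ECs (SD, n = 3). It made up 62.5% ± 5.48 in the senEC libraries and 60.9% ± 6.81 in those of EGCG-treated senECs. The shares overlapped between all groups, and within a group they spanned from 58.4% to 71.9% at the widest, with control ECs. ITGB2 was 3.41 ± 0.881, 3.82 ± 0.839, 4.31 ± 1.25 and 4.19 ± 0.786 times the summed alpha chains in the 4 groups in the same order, also with overlap.

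The comparison of senECs with control ECs asks what senescence of the endothelium adds. By edgeR, with all 12 libraries, the filter on low counts and no replicate term, none of the 9 genes was called, and neither was any other gene (0% of those tested). DESeq2 called none either. With a replicate term edgeR called other genes, counted at the end, and again none of the 9. At an unadjusted p under 0.05 stood 2 of the 9, PECAM1 and ITGA4, beside 6.61% of all genes, and the groups did not overlap for the same 2 genes, beside 11% of all genes. The median log2 difference of the 9 was 0.21, against -0.0066 over all genes tested. Without senEC replicate 5 the difference was 0.0044 for ITGB2, 0.05 for SELPLG and -0.20 for ICAM1. Those of PECAM1 and ITGAM were at least 0.31 and 0.07 whichever library was left out.

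PECAM1, which is found on both leukocytes and endothelium and binds itself across their contact, had the lowest p-value in that comparison. It was measured at 142, 161 and 129 CPM in mono-culture and 148, 148 and 129.6 CPM with control ECs. With senECs it had 168, 210.1 and 184 CPM and with EGCG-treated senECs 162, 217 and 163 CPM. Every library with senECs or EGCG-treated senECs lay above every library with control ECs or in mono-culture. The closest pair was 162 CPM with EGCG-treated senECs and 161 CPM in mono-culture. How many of all genes separate in this way was not counted. The mean of PECAM1 with senECs was 1.32-fold that with control ECs (log2 difference 0.40, standard error 0.12, 95% interval 0.11 to 0.69, edgeR unadjusted p = 0.0047, adjusted p = 0.728) and 1.30-fold that in mono-culture (0.38, edgeR adjusted p = 0.261). With EGCG-treated senECs the log2 difference was 0.35 from control ECs (edgeR unadjusted p = 0.0123, adjusted p = 0.979), 0.33 from mono-culture (adjusted p = 0.485) and -0.05 from senECs (95% interval -0.34 to 0.23, adjusted p = 1). Control ECs and mono-culture differed by -0.02 (-0.31 to 0.27). Without EGCG-treated senEC replicate 2, the difference of that group from control ECs was 0.19 and from mono-culture 0.17.

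PECAM1 is also a strong endothelial gene, so endothelial transcripts were read beside it. Of 20 other endothelial markers, 13 had a mean under 1 CPM in every group, and MMRN1 and SOX17 had no count in any library. CDH5, which encodes VE-cadherin, reached 0.064 CPM at most. The summed level of the 20 markers was 28.4 to 33.8 CPM in mono-culture, 31.6 to 36.2 CPM with control ECs, 32.2 to 41.6 CPM with senECs and 32.0 to 35.2 CPM with EGCG-treated senECs. EGFL7 held most of it, at 17.8 to 30.4 CPM, and none of the 15 tested markers was called in any comparison by edgeR or DESeq2. At most 2 of them stood at an unadjusted p under 0.05 by edgeR. This was with senECs against mono-culture, beside 11% of all genes, and with EGCG-treated senECs against control ECs, beside 4.55%.

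**Figure D4:**
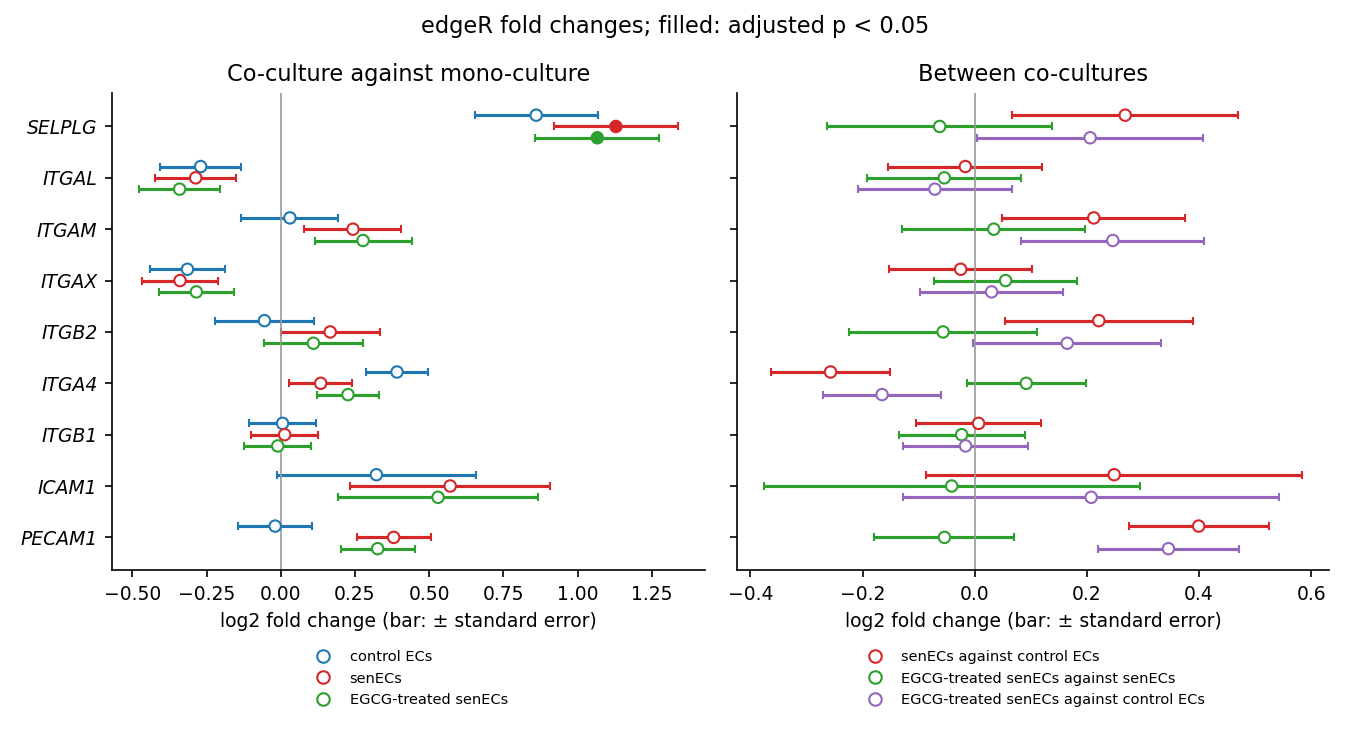
Log2 fold changes of the 9 adhesion genes with their standard errors from edgeR, for the co-cultures against mono-culture (left) and between co-cultures (right), where filled points have an adjusted p under 0.05. Only SELPLG with senECs and with EGCG-treated senECs against mono-culture is filled, and the bars of ICAM1 are the widest.

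The comparison of EGCG-treated senECs with senECs asks what EGCG given to the senescent endothelium changes in the monocytes. None of the 9 genes was called by the same edgeR fit or by DESeq2, nor was any other gene (0% of those tested). With a replicate term edgeR called other genes, counted at the end, and again none of the 9. Without that term none of the 9 stood at an unadjusted p under 0.05, beside 2.22% of all genes. The libraries of the compared groups overlapped for each of the 9, while 5.48% of all genes did not overlap. The log2 differences ran from -0.06 for SELPLG to 0.09 for ITGA4, with standard errors from 0.11 to 0.34. ICAM1 had the widest 95% interval, from -0.81 to 0.73, and ITGA4 the narrowest, from -0.15 to 0.34.

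Against mono-culture, the same edgeR fit called 1 of the 9 genes with senECs, where 0.309% of all genes were called. With EGCG-treated senECs it called 1, where 0.213% were called. The gene was SELPLG each time, and DESeq2 called it as well. At an unadjusted p under 0.05 stood 3 of the 9 with senECs (SELPLG, PECAM1 and ITGAX, beside 11% of all genes) and 5 with EGCG-treated senECs (these and ITGAL and ITGA4, beside 8.58%). The groups did not overlap for 2 of the 9 with senECs, beside 16.7% of all genes, and for 4 with EGCG-treated senECs, beside 14.1%. Between EGCG-treated senECs and control ECs none was called by either tool without a replicate term (0% of all genes). PECAM1 alone stood there at an unadjusted p under 0.05, beside 4.55%, and PECAM1 alone did not overlap, beside 9.49%. These comparisons share mono-culture or co-culture libraries and are not independent of each other.

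For ICAM1, ITGB1, ITGB2, ITGAM, ITGAL and ITGAX the SD within groups exceeded the SD of the group means, on log2(CPM + 2). Among the 9 genes, ICAM1, the immunoglobulin-family ligand of LFA-1 and Mac-1, differed most between replicates. It was measured at 120.0, 162 and 261 CPM in mono-culture, 149, 209 and 322 CPM with control ECs, 168, 225 and 414 CPM with senECs and 158, 233 and 393 CPM with EGCG-treated senECs. Replicate 1 was lowest and replicate 3 or 5 highest in each of the 4 groups, with the highest library 2.16 to 2.49 times the lowest, and all groups overlapped. The log2 difference of ICAM1 was 0.32 between control ECs and mono-culture (95% interval -0.45 to 1.10), 0.25 between senECs and control ECs (-0.53 to 1.02) and -0.04 between EGCG-treated senECs and senECs, and none was called by edgeR without a replicate term or by DESeq2. From mono-culture ICAM1 differed by 0.57 with senECs (95% interval -0.21 to 1.35, edgeR adjusted p = 0.564). With EGCG-treated senECs this difference was 0.53 (-0.25 to 1.31, edgeR adjusted p = 0.692), and DESeq2 called neither. Each co-culture's replicates 1 and 2 lay above the same-numbered library of mono-culture, and so did replicate 3 with control ECs. Without control EC replicate 3 the difference between control ECs and mono-culture became -0.02. Without senEC replicate 5 that between senECs and control ECs became -0.20. The within-group SD of ICAM1 was 0.61 on the log2(CPM + 2) scale, above that of 99.3% of the 14397 genes with a mean of at least 1 CPM, whose median was 0.16. It lay at 0.12 for ITGA4, the smallest of the 9, and 0.30 for SELPLG, the second largest. A gene annotated on the opposite strand, AC011511.5, covers 21.99% of the exon bases of ICAM1, and was counted at no more than 0.366 CPM. Without a stated strand setting, how reads of the shared bases were counted cannot be told, which also limits the FPKM of ICAM1.

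ICAM1 is a textbook target of NF-κB, the factor that LPS activates through Toll-like receptor signalling, and its promoter is known for a κB element. The sequence around that element is shown because ICAM1 moved with other LPS-response genes between replicates. It was read from the RefSeq promoter window of ICAM1 (GRCh38.p14, chr19:10270924-10270952, plus strand), and the capitals mark the match to the palindrome GGAANTTCC, searched on both strands.
ICAM1: gctttagcttGGAAATTCCggagctgaag
The match spans positions -186 to -178 from the RefSeq start, which lies at 10271120. In GENCODE 29 the gene begins earlier, at 10270835, so the match lies within the gene as annotated there. The 250 bases before the RefSeq start held this motif in 0.826% of 35116 promoter windows. Promoter windows were at hand for 4 of the 9 genes, and those of ITGA4, ITGAM and ITGB1 held no match to these letters.

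Across the 12 libraries, which share 4 groups, their depth and their replicate numbers, several of the 9 genes varied together or in opposite directions. ICAM1 correlated with ITGB2 (Pearson's r 0.93, Spearman's rho 0.94) and with ITGAM (0.90 and 0.94), less closely with ITGB1 (0.78 and 0.83), and inversely with ITGAL (-0.93 and -0.94), on log2(CPM + 2). Around the group means the same values of r were 0.97, 0.91, 0.86 and -0.97. With the mean of 22 LPS and NF-κB response genes, such as TNF, IL1B and NFKBIA, r around the group means was 0.99 for ICAM1, 0.96 for ITGB2, 0.85 for ITGAM and for ITGB1, and -0.97 for ITGAL. It was -0.01 for ITGA4, -0.28 for PECAM1 and 0.49 for SELPLG. These are descriptions of 12 libraries, and the effect of the response to LPS on the adhesion genes was not tested.

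The 22 response genes themselves had a summed level of 3886 to 8173 CPM in mono-culture, 4342 to 9049 CPM with control ECs, 4843 to 10587 CPM with senECs and 4737 to 10050.3 CPM with EGCG-treated senECs. The library lowest for ICAM1 was also lowest for the mean of this list in each group, and the highest was highest. None of the 22 was called in any comparison by edgeR or DESeq2. At most 1 of them stood at an unadjusted p under 0.05, with senECs against mono-culture, beside 11% of all genes by edgeR.

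**Figure D5:**
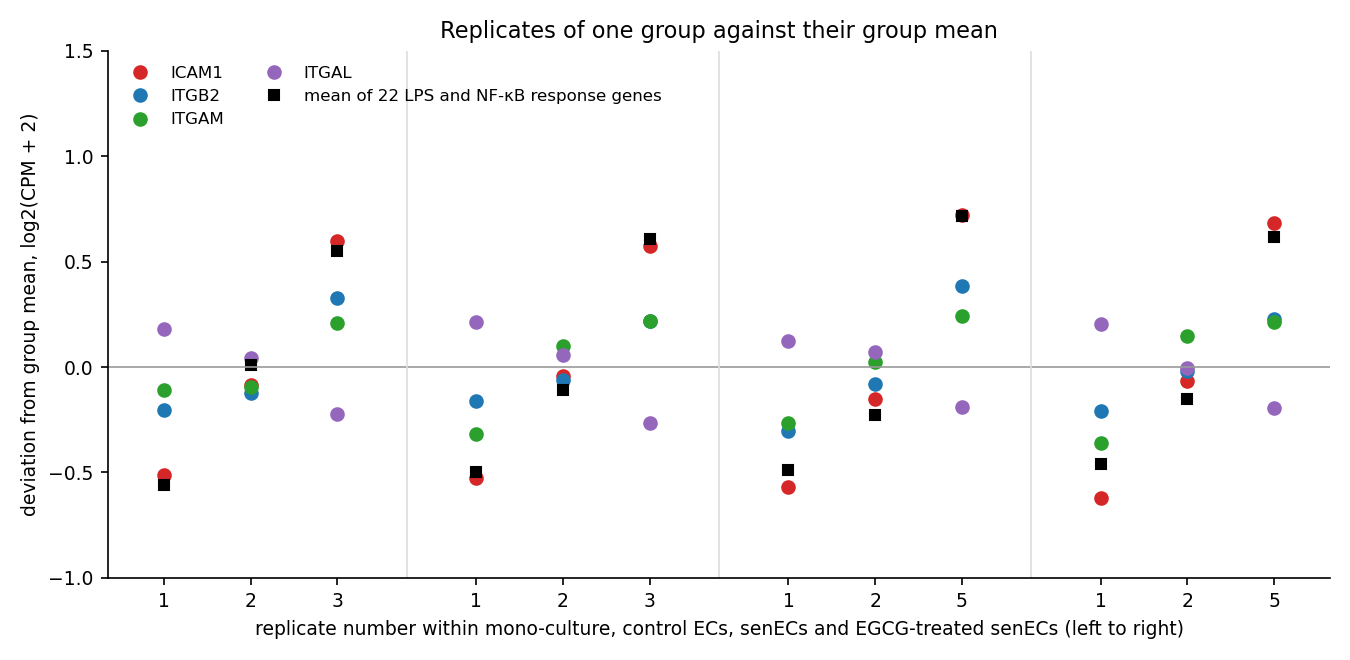
Deviation of each library from its group mean in log2(CPM + 2) for ICAM1, ITGB2, ITGAM, ITGAL and the mean of 22 LPS and NF-κB response genes, by replicate number within the 4 groups. ICAM1 and the response genes lie lowest in replicate 1 and highest in replicate 3 or 5 of each group, and ITGAL lies in the opposite order.

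The genes most like each member were sought by Pearson's r of log2(CPM + 2) over the 12 libraries, among 9342 genes with a mean of at least 10 CPM. For ICAM1 they were SERPINE2 (0.99), FCAR (0.99) and MFSD2A (0.98), and for ITGB2 MMP14 (0.97), TNIP1 (0.97) and TBXAS1 (0.97), of which TNIP1 belongs to the 22 response genes. ITGAM was closest to PTTG1IP, SIRPA and TSPAN14 (each 0.96), and SELPLG to MRAS (0.97), SLC43A3 (0.97) and SLC35B2 (0.96). PECAM1 was closest to HM13 (0.95), TKT (0.95) and RPN2 (0.91), and ITGA4 to RTTN (0.92), TCF4 (0.91) and USP32 (0.91). ITGB1 had MAPRE1, GNAI3 and TAOK3 (each 0.95), ITGAL PPFIBP1, MYBPH and CEP72 (0.92 to 0.93), and ITGAX RSRP1, HOMEZ and UBA7 (0.88 to 0.92).

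The wider adhesion machinery was read from 3 further lists. Of 20 other integrin subunits 17 were tested, and edgeR called none in any comparison. At most 5 of the 17 stood at an unadjusted p under 0.05, with senECs against mono-culture, beside 11% of all genes. DESeq2 called ITGA7 with senECs, and ITGA5 and ITGA7 with EGCG-treated senECs, against mono-culture, and ITGA7 ran from 10.1 to 16.7 CPM in mono-culture and from 16.2 to 32.4 CPM over the co-cultures. ITGA5, the fibronectin receptor chain and the most abundant of the list by CPM, ran from 304 to 389.6 CPM in mono-culture, 352 to 389 CPM with control ECs, 412 to 472 CPM with senECs and 456 to 492 CPM with EGCG-treated senECs. Its libraries with senECs and EGCG-treated senECs lay above the others, a separation not counted over all genes. The log2 difference of ITGA5 between EGCG-treated senECs and mono-culture was 0.44 (edgeR adjusted p = 0.100).

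Of 24 genes that activate integrins or anchor them to actin, 23 were tested and none was called by edgeR or DESeq2 in any comparison. At most 5 of the 23 stood at an unadjusted p under 0.05. This was against mono-culture with senECs, beside 11% of all genes, and with EGCG-treated senECs, beside 8.58%. The talin gene TLN1, whose product switches integrins to the active shape, ran from 917 to 1186 CPM over all libraries, and FERMT3, the kindlin of blood cells, from 273 to 417 CPM. Of 22 other adhesion receptors 21 were tested. At an unadjusted p under 0.05 by edgeR stood 5 of the 21 with senECs against mono-culture, beside 11% of all genes. There edgeR called PVR and NECTIN2, both higher with senECs than in mono-culture, where 0.309% of all genes were called. PVR, the CD155 ligand of CD226 and TIGIT, had 67.3 to 75.8 CPM in mono-culture and 93.7 to 107 CPM with senECs (log2 fold change 0.51, standard error 0.11, edgeR adjusted p = 0.0490). NECTIN2, a ligand of the same receptor family, had 32.3 to 36.7 CPM and 41.7 to 58.6 CPM (0.58, standard error 0.12, edgeR adjusted p = 0.0490). For both, all 9 co-culture libraries lay above those of mono-culture, a separation not counted over all genes. Leaving out any mono-culture library ended both calls. So did leaving out senEC replicate 2 or 5, control EC replicate 2 or 3, or replicate 2 of the EGCG-treated group. In these fits the edgeR adjusted p-values reached up to 0.276. For NECTIN2, leaving out control EC replicate 1 or replicate 5 of the EGCG-treated group ended the call too. Both calls were also lost with edgeR's own filter on low counts (adjusted p = 0.0586 for PVR and 0.0589 for NECTIN2) and with only the 6 libraries compared (0.0997 and 0.149), and that of PVR with DESeq2's size factors (0.0517). DESeq2 called PVR against mono-culture in each co-culture and NECTIN2 with senECs and EGCG-treated senECs. ALCAM, the most abundant of this list by CPM and the CD6 ligand, had 418 to 451 CPM in mono-culture and 322 to 380.4 CPM in all 9 co-culture libraries, with log2 differences of -0.30, -0.34 and -0.33 from mono-culture that edgeR did not call (adjusted p = 0.465, 0.160 and 0.219). DESeq2 called ALCAM lower with senECs and EGCG-treated senECs (DESeq2 adjusted p = 0.0067 and 0.0139) and not with control ECs (0.0787). It also called ICAM3, another ligand of LFA-1, with senECs (log2 fold change -1.03, DESeq2 adjusted p = 0.0144, edgeR adjusted p = 0.106), at 6.96 to 10.3 CPM in mono-culture and 3.81 to 4.57 CPM with senECs.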

How the data were processed

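THP1 RNA was sequenced as paired-end reads, which the authors cleaned and, per the labels, aligned with HISAT2 to hg38. They deposited raw counts per gene symbol, without normalization. The counting program, its strand setting and the annotation are not given in the sources used here, but all 57169 distinct symbols match GENCODE 29 (GRCh38), from which positions and exon lengths were taken. The 9 genes lie at 16:30472658-30523185 (ITGAL), 16:31259967-31332892 (ITGAM), 16:31355134-31382997 (ITGAX), 21:44885953-44931989 (ITGB2), 2:181457202-181536187 (ITGA4), 10:32900319-33005792 (ITGB1), 12:108622277-108633959 (SELPLG), 19:10270835-10286615 (ICAM1) and 17:64319415-64413776 (PECAM1). A further 4 columns match no described sample and were not used.

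Rows summing to 10 counts or more were tested with edgeR 4.0.16 (quasi-likelihood, TMM, Benjamini-Hochberg) in R 4.3.3, with all 12 libraries and 4 groups in a single model, and called at an adjusted p under 0.05. Standard errors were obtained as the log2 fold change over the root of edgeR's F. The 95% intervals use 8 residual degrees of freedom, so they are somewhat wider than edgeR's own test. With 3 libraries per group, exact permutation of a single value cannot go below p = 0.1. Replicates of a group differed beyond sampling noise (chi-square per degree of freedom 9.23 to 33.7). The study used DESeq2, and version 1.42.0 was run as an alternative, besides its size factors, other filters, only the 6 libraries compared, a replicate block and each library left out. Tested on simulated data for control ECs against mono-culture (25014 genes), edgeR recovered 143 of 200 genes changed 2-fold with 8 false calls, and DESeq2 146 with 15. The 9 genes and the other lists were chosen with earlier results of these data known. Fold changes are given for all 9 genes between control ECs and mono-culture, senECs and control ECs, and EGCG-treated senECs and senECs, and elsewhere where the unadjusted p was under 0.05. Those of ICAM1 from mono-culture with senECs and EGCG-treated senECs were added after its calls with the replicate block were seen. In the other lists, called genes and up to 3 of the most abundant were named, and ITGA7, ST3GAL4, ICAM3, FCGR1A and SPI1 were added after their DESeq2 calls were seen. The 3 most similar genes by Pearson's r were named.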

Additional observations from a re-analysis of the deposited data

How the results depend on the processing

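Over 18 alternative settings, the direction of SELPLG, ITGA4 and PECAM1 against mono-culture with senECs and EGCG-treated senECs, of SELPLG and ITGA4 with control ECs, and of PECAM1 and ITGA4 between senECs and control ECs did not change. By DESeq2, 120 genes were called for control ECs, 347 for senECs and 230 for the EGCG-treated group against mono-culture (37, 80 and 55 by edgeR), and 2 of the 9 genes with control ECs. Keeping every row with a count gave 223, 588 and 377 genes and 1 (SELPLG), 3 (with ICAM1 and PECAM1) and 2 (with ICAM1) of the 9, and 114, 14 and 43 genes for senECs against control ECs, EGCG-treated senECs against senECs and EGCG-treated senECs against control ECs. With edgeR's own filter 0 of the 9 were called with EGCG-treated senECs against mono-culture (SELPLG, edgeR adjusted p = 0.0720). With only the 6 libraries compared, 20 genes and 0 of the 9 were called with senECs (SELPLG, edgeR adjusted p = 0.0793), 35 genes with EGCG-treated senECs, and 1 of the 9, SELPLG, with control ECs. The cause of these shifts was not tested.

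Same-numbered replicates correlated by 0.03 to 0.58 in their deviations from the group means over 14 pairs. The range was 0.46 to 0.58 for number 1 and 0.03 to 0.34 for number 2, with 0.42 for number 3 and 0.34 for number 5. Of 28 library-and-group pairs, 23 were closest to their own number. Not every pair passed 0.1, so the numbers were not taken as pairing in the main fit. The labels do not state whether same-numbered libraries belong together, and the calls against mono-culture depended on this choice. With the replicate block, 469, 709 and 424 genes and 3, 3 and 3 of the 9 were called against mono-culture in the co-cultures in the same order, SELPLG and ICAM1 each time, with ITGA4, PECAM1 and ITGAL as the other gene. For ICAM1 the log2 difference from mono-culture was then 0.33 with control ECs (edgeR adjusted p = 0.0200), 0.48 with senECs (2.7e-04) and 0.45 with EGCG-treated senECs (0.0015). The block gave 153, 13 and 34 genes in the other 3 comparisons.

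The difference of ITGB1 between senECs and control ECs turned to -0.0048 by DESeq2 and by its size factors, -0.0069 with edgeR's filter, -0.0044 with 6 libraries and -0.0041 with the block, and that of ITGAX to 0.041 with the block. With each library left out in turn, the genes called ranged from 11 to 44 for control ECs, 19 to 255 for senECs and 12 to 100 for the EGCG-treated group against mono-culture, and from 0 to 1 for either senEC group against control ECs. Of the 9, 0 to 1 were called against mono-culture in each co-culture. The log2 differences whose sign turned without some library ranged, between control ECs and mono-culture, from -0.017 to 0.68 for ICAM1, -0.082 to 0.18 for ITGAM, -0.093 to 0.059 for ITGB1, -0.17 to 0.13 for ITGB2 and -0.086 to 0.067 for PECAM1. Those between senECs and control ECs ranged from -0.20 to 0.59 for ICAM1, -0.14 to 0.094 for ITGAL, -0.14 to 0.060 for ITGAX and -0.063 to 0.11 for ITGB1. Those between EGCG-treated senECs and senECs ranged from -0.46 to 0.41 for ICAM1, -0.16 to 0.040 for ITGAL, -0.091 to 0.20 for ITGAM, -0.0050 to 0.17 for ITGAX, -0.099 to 0.078 for ITGB1, -0.20 to 0.16 for ITGB2, -0.21 to 0.037 for PECAM1 and -0.29 to 0.16 for SELPLG.

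Depth limits only rare transcripts here, since every one of the 9 genes had at least 180 counts in each library, and 3 libraries per group limit the rest. Intervals of the log2 differences reached up to 1.35 for ICAM1. All groups were LPS-stimulated, so basal levels were not measured, and protein and surface levels were not measured either.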
